A study of Mus musculus with 4 samples.

Results

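Chamber endocardial cells are the endothelial cells that line the cavities of the forming atria and ventricles, and they were picked here from single-cell RNA profiles of mouse hearts at E10.5. They were chosen by their own transcripts. A barcode with at least 1500 genes and at most 10% mitochondrial UMIs (unique molecular identifiers, 1 per captured transcript) was taken as endothelial when the sum of *Pecam1*, *Cdh5*, *Ecscr*, *Tie1* and *Plxnd1* reached 4 UMIs per 10000, with *Tnnt2* below 15 and *Hbb-y* below 500 UMIs per 10000. It was endocardial with at least 1 UMI of *Npr3*, *Nrg1* or *Nfatc1*, and of the chamber when *Emcn*, *Npr3* and *Gpr182* together had more UMIs than *Nfatc1*, *Wnt4* and *Tbx20* together. The rule found 1400 chamber endocardial cells (EdCs) among 30415 barcodes kept (4.60%), beside 979 cushion EdCs, in which the second sum was the larger, and 447 other endothelial cells without an endocardial UMI. The 14 genes named in the rule are given below as levels only, with no test.

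Endocardium is a specialised endothelium that faces the blood on one side and the cardiac jelly and heart muscle on the other. Over the chambers it sends signals, among them neuregulin, to the muscle as it forms trabeculae. Over the cushions, by contrast, it can give rise to valve mesenchyme. TIE2, the receptor tyrosine kinase encoded by *Tek*, binds angiopoietins and acts through PI3K and AKT, which keep the transcription factor FOXO1 out of the nucleus.

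The whole cardiogenic region was dissected, so each library also held heart muscle, mesenchyme and blood. Controls (libraries 5 and 7) carried the floxed *Tie2* alleles without Cre (labelled Tie2flfl), and *Tie2-cko* hearts (libraries 6 and 8, labelled Nfatcre-Tie2flfl) carried the same alleles with a constitutive Cre knocked into *Nfatc1*, which is active in endocardium. All mice shared a mixed background of C57/BL6 and another laboratory strain. Only the mutants had the knock-in, so the loss of *Tek* and 1 altered *Nfatc1* allele cannot be told apart. Per the study's methods 2 hearts of each genotype came from 1 litter and somite-matched libraries of both genotypes shared a lane, but the labels do not tell which libraries were matched.

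Library 5 gave 366 chamber EdCs, library 6 gave 152, library 7 gave 491 and library 8 gave 391, and no barcode was shared between them. Their median depth was 17182, 31717, 15221 and 12621 UMIs, respectively. The libraries stood apart in a way the genotypes do not explain. Over the summed UMIs of chamber EdCs the first principal component (53.5% of the variance) set libraries 5 and 6 (14.5 and 30.1) apart from 7 and 8 (-25.5 and -19.1), and the second (29.6%) set the controls (17.6 and 15.5) apart from the *Tie2-cko* libraries (-9.98 and -23.1). The differences in *Tek* and in the shares of cells are therefore also given within the library pairs 6 with 5 and 8 with 7. In library 5, 90 chamber EdCs had *Xist* UMIs, 192 had UMIs of Y-linked genes and 8 had both, whereas no chamber EdC of the other libraries had an *Xist* UMI, so library 5 held cells of more than 1 embryo.

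Chamber EdCs carried the markers expected of their label. Levels are the mean over a library's cells of UMIs per 10000, and errors are SD over the 2 libraries of a genotype. *Emcn*, endomucin, was at 5.23, 6.38, 4.97 and 7.06 in libraries 5, 6, 7 and 8. *Npr3*, a natriuretic peptide receptor, was at 2.05, 1.84, 2.56 and 1.87, and the receptor *Gpr182* at 1.35, 1.00, 1.33 and 0.816. These 3 genes chose the cells, but the other 3 fixed markers did not. Those markers were, however, fixed with earlier results of these data known, so they are no independent check of the label. The homeobox gene *Irx5* was at 2.49, 2.46, 1.82 and 1.63 against 0.0763 to 0.129 in cushion EdCs of the same libraries. *Klhl4* was at 1.30, 1.25, 1.27 and 1.26 against 0.166 to 0.220. The tetraspanin-like *Tm4sf1* was at 2.68, 2.37, 3.0 and 3.83 against 0.368 to 0.628. In the 86 cells just inside the rule (a margin of 1 UMI) *Irx5* averaged 0.436. It was at 0.251 in the 81 endocardial cells with equal sums and at 0.304 in the 79 cells 1 UMI outside the rule. These values were all below the mean level of each library. In the same order *Klhl4* was at 0.621, 0.474 and 0.293. *Tm4sf1* went the other way, at 0.725, 1.16 and 0.871. By library the order of *Irx5* varied. Inside and outside the rule it was 0.968 and 0.359 in library 5 (16 and 17 cells) and 0.451 and 0.146 in library 7 (26 and 27 cells). In library 8 it was 0.271 and 0.352 (38 and 33 cells), and in library 6 it was 0 and 1.18, from only 6 and 2 cells.

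**Figure D1:**
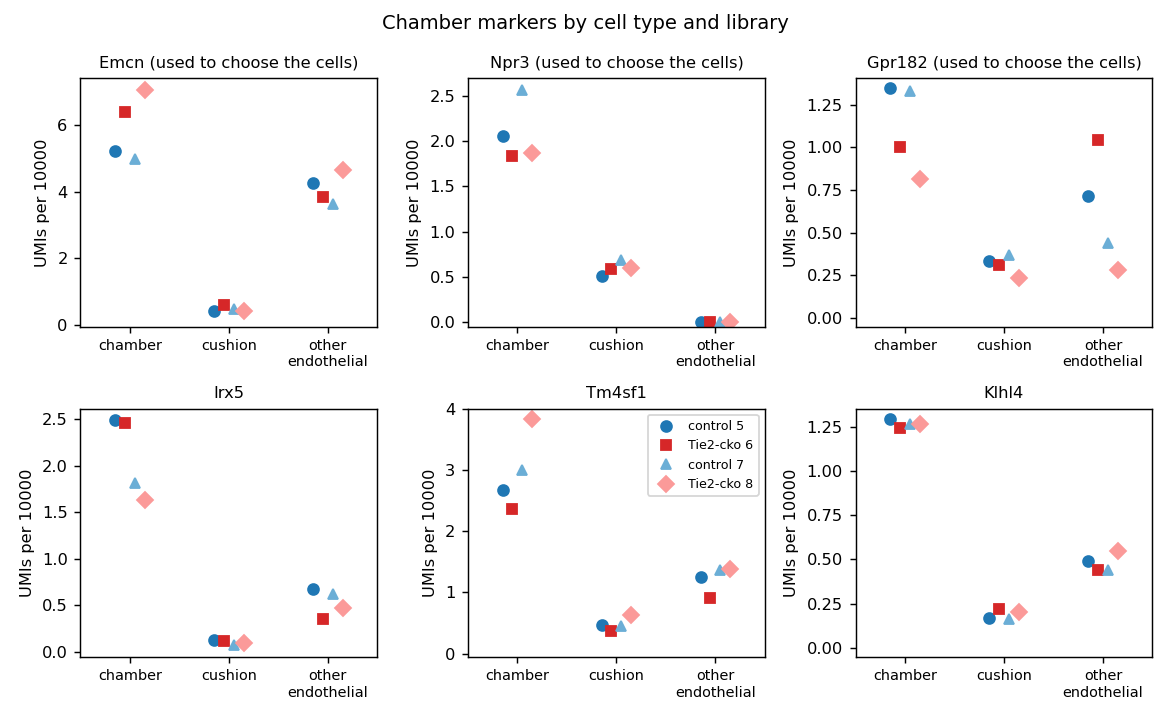
Mean level in UMIs per 10000 (y axis) of the 6 chamber markers in chamber, cushion and other endothelial cells, with 1 point for each library. *Irx5*, *Tm4sf1* and *Klhl4* did not enter the choice of cells, and in each library they were higher in chamber EdCs than in both other types.

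What set chamber EdCs apart from cushion EdCs in all 4 libraries is given as a description, since both were chosen by expression. Genes were ranked by the smallest difference in any library, and examples are given from the first 15 in each direction. After *Irx5*, *Tm4sf1* and *Klhl4* came *Gja4*, a connexin of arterial endothelium (2.17 against 0.353 as the mean over libraries) and then the growth factor *Ptn* (2.07 against 0.439). *Cavin2*, a coat protein of caveolae, ranked 13 (4.49 against 1.25), behind *Hmcn1*, *Pkdcc*, *Pcdh7*, *Tfpi* and *Tspan4*. *Cdo1*, a cysteine dioxygenase (0.0772 against 1.42), and *Ccdc141* (0.143 against 2.08) came first among the genes lower in chamber EdCs. The proteoglycan *Vcan* was at 0.808 against 8.08, the hyaluronan synthase *Has2* at 0.143 against 0.993, *Sox9* at 0.113 against 0.975, *Igfbp7* at 0.202 against 2.34 and the flow-responsive factor *Klf4* at 0.119 against 1.07. *Jam2*, *Ncam1*, *Krt79*, *S100a6* and *Stk38l* were also among the first 15. Against other endothelial cells, chamber EdCs had more *Irx5* (2.10 against 0.531), *Cavin2* (4.49 against 1.48) and *Tgfbr3*, a co-receptor for TGF-beta (0.677 against 0.206). They had less *Cldn5*, a tight junction protein of vessels (0.450 against 1.53) and less *Kcne3* (0.0824 against 0.503).

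Chamber EdCs were not uniform. Grouped on variable genes other than those of the rule, they fell into 8 clusters, which are left unnamed and called by their leading genes. In cluster 0 (324 cells) the platelet gene *Pf4* ranked first (1.36 against 0.0655 in the rest) owing to 1 cell of library 6, without which it was at 0.0443, followed by the mitotic genes *Cenpf*, *Top2a* and *Prc1*. The first 10 genes of cluster 2 (114 cells) included *Pcp4*, *Cyp26b1*, *Vcan* and *Twist1*, and those of cluster 6 (183 cells) *Ptn*, *Pla2g7*, *Bmx* and *Nr2f2*. Clusters 1 (213 cells) and 5 (379 cells) followed the library pairs: cluster 1 held 36.1%, 31.6%, 0% and 8.44% of the chamber EdCs of libraries 5, 6, 7 and 8, and cluster 5 held 0.546%, 0.658%, 53.2% and 29.4%. Leading genes of cluster 5 included the pseudogenes *Nutf2-ps1* and *Rpl9-ps6*.

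For 3 small clusters the data went against the chamber label or pointed to mixed droplets. Cluster 3 (78 cells) was led by *Cldn5*, *Oit3*, *Pcdh17* and *Kcne3* and had *Irx5* at 0.0943. Cluster 7 (77 cells) was led by *Rgs2*, *Stmn2*, *Nts* and *Isl1*, the last a factor of second heart field progenitors, and had *Irx5* at 0.00556. Cluster 4 (32 cells) was led by *Dcn*, *Upk3b* and the muscle genes *Myh7* and *Ttn*, and 15 of its cells were called doublets. Together they made up 13.4% of the chamber EdCs, at 13.9%, 25.7%, 6.52% and 16.6% in libraries 5, 6, 7 and 8, so both *Tie2-cko* libraries had a higher share than either control. *Tek*, the counts of genes passing a test and the shares of cells are also given without them, whereas the levels of other genes and the counts of list members are not.

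*Tek* itself checks the labels. The gene lies on chromosome 4 (mm10, chr4:94739289-94874976, plus strand). The reads are 3′ tags and where they lie relative to the floxed part is not given in the sources used here, so a remaining UMI does not show an intact allele. Its level in chamber EdCs was 0.867 and 0.981 in controls 5 and 7, and 0.409 and 0.278 in *Tie2-cko* 6 and 8. Both *Tie2-cko* libraries were below both controls. The log2 fold change of summed UMIs was -1.52 ± 0.16 (SE), a 2.87-fold lower level, and the log2 ratio was -1.18 within the pair 6 and 5 and -1.73 within the pair 8 and 7. The unadjusted p was 3.72e-05, and after Benjamini-Hochberg adjustment over 11847 genes the adjusted p was 0.440 (edgeR quasi-likelihood test). Without clusters 3, 4 and 7 the log2 fold change was -2.22 ± 0.15, with adjusted p = 0.00495 in the same test. The levels then were 0.892, 0.253, 0.956 and 0.171 in libraries 5, 6, 7 and 8.

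The remaining *Tek* UMIs were unevenly spread over the chamber EdCs. In cluster 1 the summed UMIs gave 0.746 per 10000 in control 5 and 0.0482 in *Tie2-cko* 6, from 195 and 9 UMIs. In cluster 0 the controls were at 0.990 and 1.00, and the *Tie2-cko* libraries at 0.209 and 0.234. By contrast, cluster 7, with the highest *Isl1*, had 1.12 and 1.22 in controls 5 and 7, and 1.69 and 1.07 in *Tie2-cko* 6 and 8 (27, 25, 71 and 63 UMIs), so its genotypes overlapped. Cluster 3, with the highest *Cldn5*, had 0.566 and 1.27 in controls 5 and 7, and 0.668 and 0.491 in *Tie2-cko* 6 and 8. Control 7 had only 6 cells and 17 UMIs there, with a Poisson interval of 0.741 to 2.04 that overlapped those of the *Tie2-cko* libraries (0.545 to 0.810 and 0.307 to 0.743), so a difference in cluster 3 could not be judged at this depth. In cluster 6 the *Tie2-cko* libraries kept 0.567 and 0.452 against 0.872 and 1.28 in controls. *Tek* was among the genes clustered. When it was left out, the same 77 and 78 cells again formed 1 cluster each. These values are a description, with no test.

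**Figure D2:**
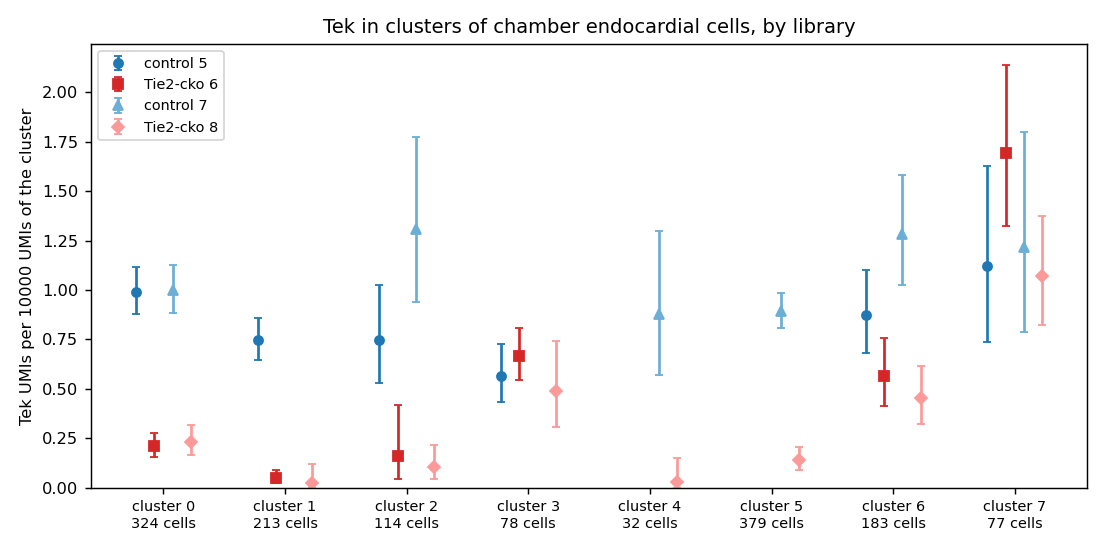
*Tek* UMIs per 10000 UMIs (y axis) in each cluster of chamber EdCs, with 1 point for each library that had at least 10 cells there and exact 95% Poisson intervals, which cover counting error only. The *Tie2-cko* points lie below the controls in clusters 0, 1, 2, 4, 5 and 6. In clusters 3 and 7 the point of library 6 lies above the plotted controls and that of library 8 below them. Control 7 had too few cells in cluster 3 to be drawn.

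*Tek* was also measured in other cell types of the same hearts. It was at 0.797 and 1.81 in control cushion EdCs and at 0.259 and 0.225 in *Tie2-cko* cushion EdCs, a log2 fold change of -2.59 ± 0.29 (edgeR adjusted p = 0.0536). The difference between chamber and cushion EdCs in this fold change, 1.01 ± 0.24 on the log2 scale, had adjusted p = 0.137 in the test of that difference itself. Other endothelial cells had 0.598 and 0.934 in controls and 0.356 and 0.234 in *Tie2-cko* (log2 fold change -1.17 ± 0.44, edgeR adjusted p = 0.999857). The share of these cells with a *Tek* UMI after thinning to 5500 UMIs was 24.7%, 27.6%, 35.9% and 9.92% in libraries 5, 6, 7 and 8, so the genotypes overlapped. Heart muscle was near 0, with at most 0.00811.

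The share of chamber EdCs with a *Tek* UMI gave the same order. After each cell was thinned to 5500 UMIs, which left out 8, 1, 18 and 13 shallower cells of libraries 5, 6, 7 and 8, the share was 32.7% and 38.3% in controls and 13.9% and 10.8% in *Tie2-cko*. Without thinning it was 62.0%, 71.1%, 40.1% and 22.5%, in the same order. Thinned heart muscle cells, which should lack *Tek* and in which a UMI can come from free RNA, had 0.0767% to 0.502%. The difference in chamber EdCs was -23.1 percentage points (-18.8 within the pair 6 and 5 and -27.4 within the pair 8 and 7), and -27.7 points without clusters 3, 4 and 7. An exact permutation test over 4 libraries can go no lower than p = 0.333 (two-sided), which is the value it gave.

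Across all genes, no gene passed the test between *Tie2-cko* and control in chamber EdCs. Of 11847 genes tested, 0% had an adjusted p below 0.05 in edgeR, and at an unadjusted p below 0.05 there were 672, of which 428 (3.61% of those tested) were higher and 244 (2.06%) lower in *Tie2-cko*. DESeq2 on the same sums called 16 genes, 7 higher and 9 lower, among them *Tek*, *Edn1*, *Pdgfb*, *Myct1*, *Gap43*, *Etv2* and *Alad*, and also *Xist*. Scaling by library size alone gave 543 higher and 157 lower genes at an unadjusted p below 0.05 in edgeR. Without library 5, which held cells of both sexes, 0 genes passed and 536 had an unadjusted p below 0.05. With the library pair as a block edgeR called 697 genes, 421 higher (3.55%) and 276 lower (2.33%). That fit has 1 residual degree of freedom, and the labels do not pair the libraries. Both *Tie2-cko* libraries were above both controls for 21.7% of the genes tested and below both for 12.5%. All p-values rest on the spread between these 4 libraries alone, and edgeR and DESeq2 estimate that spread partly from other genes. In such sums fewer cells with a transcript and less of it per cell cannot be told apart.

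The 12 genes with the smallest p on the higher side, among those with at least 0.5 UMIs per 10000 in the higher genotype and no overlap between genotypes, are given as values. The choice fixed the absence of overlap here and on the lower side. Of the 12, 7 reached that level in *Tie2-cko* alone (on the lower side 7 of 12 in controls alone). None of the 12 passed over all genes in the main edgeR fit, with its filter on low counts and no block. *Edn1*, the precursor of the vasoconstrictor endothelin-1 (chr13:42301476-42307990, plus strand, mm10), was at 0.504 and 0.492 in controls and at 0.970 and 1.31 in *Tie2-cko*, a log2 fold change of 1.01 ± 0.20 (adjusted p = 0.650). *Myct1*, an endothelial membrane protein (chr10:5593775-5606904, plus strand), was at 0.367 and 0.273 against 0.581 and 0.690, a log2 fold change of 1.14 ± 0.18 (adjusted p = 0.536). Both are described only, since the same contrast chose them. *Gap43*, better known from growing axons, was at 1.26 in each control and at 2.29 and 2.04 in *Tie2-cko* (log2 fold change 0.73 ± 0.13). *Clec14a*, an endothelial lectin, was at 0.512 and 0.379 against 0.935 and 0.755 (0.87 ± 0.19). The inhibitory SMAD *Smad7* was at 0.656 and 0.613 against 1.01 and 0.960 (0.52 ± 0.12). The other 7 were *Trim47*, *Ehd4*, *Filip1l*, *Daam1*, *Adgrf5*, *Peg10* and *Ldhb*, with log2 fold changes of 0.47 to 0.74.

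On the lower side *Tek* came first, followed by globins and collagens. *Col13a1*, a transmembrane collagen (chr10:61838236-61979108, minus strand, mm10), was at 0.561 and 0.790 in controls and at 0.396 and 0.328 in *Tie2-cko*, a log2 fold change of -0.93 ± 0.20 (edgeR adjusted p = 0.683). *Col26a1* was at 0.637 and 0.633 against 0.460 and 0.343 (-0.81 ± 0.15), and *Col23a1* at 0.709 and 0.649 against 0.505 and 0.375 (-0.57 ± 0.13). *Alad*, an enzyme of haem synthesis (chr4:62509169-62519918, minus strand), was at 0.748 and 0.936 against 0.470 and 0.372 (-0.91 ± 0.16). Its lower level was not particular to chamber EdCs. *Alad* was at 0.4542 and 0.4458 against 0.3475 and 0.2866 in heart muscle cells. In cushion EdCs it was at 0.4972 and 0.5657 against 0.4129 and 0.31, whereas in other endothelial cells the genotypes overlapped. The replication-dependent histones *Hist1h2ae* and *Hist1h3c*, whose near-identical copies can share reads, had log2 fold changes of -0.67 ± 0.15 and -0.65 ± 0.15. *Asns*, asparagine synthetase, had -0.58 ± 0.13.

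The globins among them went with the level of blood transcripts in other cells of the same libraries. *Hba-x*, an embryonic alpha globin, was at 17.0 and 8.03 in controls and at 3.58 and 3.14 in *Tie2-cko* (-1.98 ± 0.38), and *Hbb-bt*, *Hba-a2* and *Hbb-bh1* had log2 fold changes of -2.30, -1.67 and -1.88. The 7 red blood markers summed to 64.8, 14.0, 32.0 and 12.5 UMIs per 10000 in chamber EdCs of libraries 5, 6, 7 and 8. In heart muscle cells they summed to 90.3, 26.2, 42.2 and 13.2, in the same order of libraries. *Hbb-y*, the most abundant, was at 30.4, 6.70, 15.7 and 6.15 in chamber EdCs. All 7 were detected in every library. Of the 6 that could be tested 0 were higher and 5 lower at an unadjusted p below 0.05 (3.61% and 2.06% of all genes), with a median log2 fold change of -1.93.

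**Figure D3:**
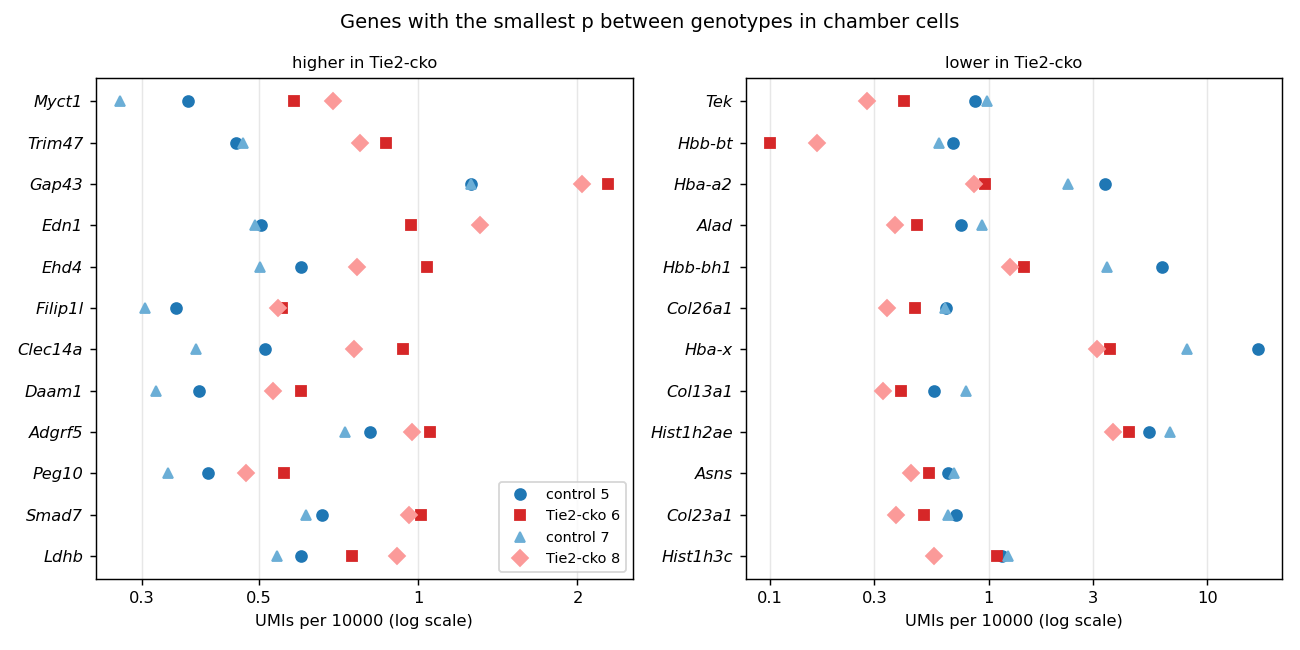
Level in UMIs per 10000 (x axis, log scale) of the 12 genes with the smallest p in each direction, with 1 point for each library. By the way they were chosen, both *Tie2-cko* libraries lie on the same side of both controls for each gene, and the globins show the widest separation on the lower side.

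Markers of other cell types were looked at in the same way, beside 50.8% of all genes with a positive log2 fold change and 3.61% higher and 2.06% lower at an unadjusted p below 0.05. Heart muscle markers (10 genes, *Myl7* the most abundant at 4.91, 2.70, 6.33 and 8.32) summed to 16.5, 9.65, 21.7 and 25.3, against 510 to 542 in heart muscle cells. None of the 9 tested passed an unadjusted p below 0.05, and their median log2 fold change was 0.11. Other vascular markers (10 genes, *Cd34* the most abundant at 1.53, 2.27, 1.22 and 1.92) summed to 3.39, 4.90, 2.04 and 3.56, and all 9 tested had a positive log2 fold change, with a median of 0.57 and 2 (*Cd34* and *Sox17*) at an unadjusted p below 0.05. *Stab2*, a defining gene of sinusoidal and lymphatic endothelium, was listed at 0 in library 7. Mesenchyme markers (8 genes, led by *Twist1*) summed to 0.884, 1.09, 1.06 and 1.31, with a median log2 fold change of 0.34 and 0 of 8 at an unadjusted p below 0.05. Epicardial, neural and epithelial markers summed to 0.0410 to 0.194 in every library. The part of these cells or their RNA in the differences described here was not tested, beyond the values without clusters 3, 4 and 7. At an unadjusted p below 0.05 there were 0 of 4 epicardial, 1 of 2 neural (*Elavl4*), 0 of 2 epithelial and 1 of 2 immune or platelet markers tested (*Pf4*), and 0 of 4 sex-linked genes tested. Outside the rule, 0 of 3 chamber markers (median log2 fold change -0.06), 0 of 3 cushion markers (0.12), 1 of 3 endocardial markers (*Adgrg6*, median 0.10) and 1 of 6 endothelial markers (*Erg*, median 0.14) did so. Platelet and immune markers summed to 0.140, 3.10, 0.176 and 0.0812, and 7263 of the 7288 *Pf4* UMIs in library 6 came from 1 cell.

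Genes listed as raised by FOXO1 were all on the higher side in *Tie2-cko* chamber EdCs. The study names most but not all of them as such. Since the list drew on the study and its libraries, this is no independent evidence. Of 8 tested, 8 had a positive log2 fold change (50.8% of all genes tested did), 5 had both *Tie2-cko* libraries above both controls (21.7% of all genes) and 5 had an unadjusted p below 0.05 (3.61% higher over all genes). Their median was 0.71, against 0.01 for all genes. *Pdgfb*, which recruits mural cells, was at 0.0824 and 0.0672 in controls and at 0.194 and 0.205 in *Tie2-cko*, with a log2 fold change of 1.61 ± 0.21 (edgeR adjusted p = 0.447). *Timp3*, an inhibitor of metalloproteases, was at 0.279 and 0.246 against 0.382 and 0.491 (0.82 ± 0.13), and *Tcf4* at 1.02 and 0.872 against 1.32 and 1.53 (0.59 ± 0.15). *Angpt2*, a TIE2 ligand, had 0.0214 and 0.0122 against 0.0210 and 0.0235, and its genotypes overlapped. *Esm1*, an endothelial proteoglycan at 0.0475 and 0.00743 against 0.0638 and 0.0771, was among the first 10 genes of cluster 3 (0.558 against 0.0132 in the rest). That cluster held 9.02%, 13.8%, 1.22% and 4.60% of the chamber EdCs of libraries 5, 6, 7 and 8, and its part in the difference was not tested. In the main edgeR fit, with its filter on low counts and no block, none of these genes passed the adjusted threshold. The same held without clusters 3, 4 and 7, since *Tek* alone passed there. With all clusters and the library pair as a block, 6 of the 8 passed it on the higher side. DESeq2 called *Pdgfb*.

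Among 3 genes named as lowered by FOXO1, 3 had a negative log2 fold change (49.2% of all genes tested did) and *Col13a1* alone had an unadjusted p below 0.05 (2.06% of all genes were lower at that threshold). *Nos3*, endothelial nitric oxide synthase, was at 0.306 and 0.414 against 0.383 and 0.329, and *Gja4* at 2.46 and 2.21 against 1.82 and 2.17. The genotypes overlapped for *Nos3* and were separated by a small step for *Gja4*.

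Genes of the axis itself gave mixed values. *Tie1*, a partner of TIE2 used to choose the cells, was at 0.920 and 0.714 in controls and at 1.01 and 0.776 in *Tie2-cko*. *Foxo1* was at 0.423 and 0.387 against 0.387 and 0.389, with a log2 fold change of -0.13 ± 0.13. *Ptprb*, a phosphatase that acts on TIE2, was at 0.380 and 0.276 against 0.501 and 0.419 (0.50 ± 0.15, unadjusted p = 0.0130 and adjusted p = 0.771 in edgeR). Of 19 PI3K, AKT and FOXO genes tested, 0 had an unadjusted p below 0.05, 6 had both *Tie2-cko* libraries above both controls (31.6%, against 21.7% of all genes) and 2 below, and the median log2 fold change was 0.0036. Among the 4 tested genes of TIE receptors and angiopoietins, 2 were higher (*Angpt1* and *Ptprb*) and 1 lower (*Tek*) at that threshold (3.61% and 2.06% of all genes), with a median of 0.30.

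Matrix genes held both directions. Of the 12 genes the study named as higher, again partly from these libraries, 12 had a positive log2 fold change, 10 had both *Tie2-cko* libraries above both controls and 8 had an unadjusted p below 0.05, with a median of 0.48. Over all genes these shares were 50.8%, 21.7% and 3.61%. *Vcan*, versican, was at 0.560 and 0.577 in controls and at 1.02 and 1.07 in *Tie2-cko* (0.54 ± 0.21, edgeR adjusted p = 0.845). Cluster 2, where *Vcan* was at 2.44 against 0.611 in the rest, held 5.74%, 6.58%, 5.09% and 14.8% of the chamber EdCs of libraries 5, 6, 7 and 8, and its part in the difference was not tested. *Hbegf*, an EGF family ligand bound to heparan sulfate, was at 0.188 and 0.137 against 0.266 and 0.413 (1.00 ± 0.24), and *Tgfbi* at 0.306 and 0.215 against 0.492 and 0.483 (0.81 ± 0.19). *Adamts1*, a protease that cleaves versican, was at 0.461 and 0.447 against 0.530 and 0.640 (0.45 ± 0.16). The 4 genes named as lower all had negative log2 fold changes, with a median of -0.68, 3 with an unadjusted p below 0.05 and 3 with no overlap (49.2%, 2.06% and 12.5% of all genes). *Hapln1*, which links hyaluronan to proteoglycans, was at 3.67 and 4.40 against 3.79 and 2.81 (-0.56 ± 0.15), and its genotypes overlapped. Of 7 *Adamts* and *Timp* genes tested, 3 were positive and 4 negative, with a median of -0.02 and 2 (*Timp3* and *Adamts1*) higher at an unadjusted p below 0.05.

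The list of genes for signalling from endocardium to heart muscle leaned to the higher side. Besides ligands it held a receptor and Notch targets, which are not themselves signals sent to muscle. Of 20 tested, 11 had both *Tie2-cko* libraries above both controls, 0 below, and 7 had an unadjusted p below 0.05 on the higher side, with a median log2 fold change of 0.39. Over all genes these shares were 21.7%, 12.5% and 3.61%. Several lists share members, such as *Pdgfb*, *Hbegf* and *Timp3*, so their counts are not independent of each other. *Hey1*, a Notch target, was at 0.238 and 0.219 in controls and at 0.305 and 0.410 in *Tie2-cko* (0.85 ± 0.18, edgeR adjusted p = 0.683). *Hey2* was at 0.0824 and 0.0819 against 0.151 and 0.170 (0.84 ± 0.30), and the Notch ligand *Dll4* at 0.152 and 0.0971 against 0.229 and 0.136, where the genotypes overlapped but each pair had the mutant higher. The receptor *Notch1* was at 0.842 and 0.80 against 0.812 and 0.835 (0.08 ± 0.12). *Nrg1*, the ligand of the muscle receptors ERBB2 and ERBB4 and a gene of the rule, was at 0.565 and 0.718 against 0.718 and 0.755.

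Among the 15 BMP and ALK1 genes tested, *Smad7* and *Bmper*, an extracellular BMP modulator at 0.0104 and 0.0136 against 0.0446 and 0.0284, had an unadjusted p below 0.05, with a median of 0.18 over the list. The BMP targets *Id1* and *Id3* had log2 fold changes of 0.16 ± 0.13 and 0.08 ± 0.13. Of 9 VEGF genes, 1 (*Nrp1*, a co-receptor, 1.32 and 1.05 against 1.56 and 1.35) had an unadjusted p below 0.05, and *Kdr*, VEGF receptor 2, was at 2.24 and 1.83 against 2.58 and 2.08 (median of the list 0.25). Of 11 flow-responsive genes 3 were higher at that threshold, with a median of 0.24. They were *Edn1*, *Klf4* (0.114 and 0.0648 against 0.145 and 0.151) and *Klf6*, whereas *Klf2*, a main shear-responsive factor, had 1.73 and 2.0 against 1.62 and 2.59 and overlapped. Of 12 YAP and TEAD genes 10 had a positive log2 fold change, 7 had both *Tie2-cko* libraries above both controls and 2 had an unadjusted p below 0.05, with a median of 0.27. These were *Ccn2*, a matricellular YAP target at 0.0252 and 0.0343 against 0.118 and 0.152 (1.74 ± 0.26), and the kinase *Lats2* (0.73 ± 0.20). Over all genes 50.8% had a positive log2 fold change, 21.7% had both *Tie2-cko* libraries above both controls and 3.61% were higher at an unadjusted p below 0.05.

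Most endothelial transcription factors had positive log2 fold changes. Of 20 tested, 16 were positive (50.8% of all genes), 12 had both *Tie2-cko* libraries above both controls (21.7%) and 2 below (12.5%). Of the 20, 7 were higher and 2 lower at an unadjusted p below 0.05 (3.61% and 2.06% of all genes), with a median log2 fold change of 0.24. *Etv2*, a factor of early blood and endothelial progenitors, was at 0.468 and 0.386 in controls and at 0.175 and 0.200 in *Tie2-cko*, a log2 fold change of -1.38 ± 0.20 (edgeR adjusted p = 0.536). *Lyl1* was at 0.476 and 0.479 against 0.356 and 0.383 (-0.42 ± 0.13). On the other side *Sox18* was at 0.155 and 0.171 against 0.216 and 0.393 (1.03 ± 0.24), *Sox17* at 0.308 and 0.179 against 0.372 and 0.469 (0.82 ± 0.28), and the ETS factor *Fli1* at 0.360 and 0.414 against 0.489 and 0.539 (0.49 ± 0.13). Of 8 tested genes that the study named as normal in these cells, 1 had an unadjusted p below 0.05, *Adgrg6*, an adhesion GPCR needed for heart development, at 1.20 and 1.32 against 0.922 and 0.926 (-0.45 ± 0.14), and the median was -0.02.

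Genes of DNA replication were nearly all on the lower side in *Tie2-cko* chamber EdCs. Of 43 S phase genes tested, 40 had a negative log2 fold change, 23 had both *Tie2-cko* libraries below both controls, and 14 had an unadjusted p below 0.05, with a median of -0.31. *Tyms*, thymidylate synthase, was at 2.03 and 2.31 in controls and at 1.65 and 1.45 in *Tie2-cko* (-0.50 ± 0.13, edgeR adjusted p = 0.709). *Pola1*, the catalytic subunit of DNA polymerase alpha, was at 0.449 and 0.517 against 0.348 in each (-0.48 ± 0.15). Of 54 genes of G2 and mitosis, 51 were negative and 23 had no overlap on the lower side, but only 1 (*Birc5*, survivin, 2.23 and 2.81 against 1.92 and 1.99) had an unadjusted p below 0.05, with a median of -0.19. The topoisomerase *Top2a* was at 2.59 and 3.22 against 2.51 and 2.16, and the step within the pair 6 and 5 was small. Over all genes 49.2% were negative, 12.5% had no overlap on the lower side and 2.06% were lower at an unadjusted p below 0.05.

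**Figure D4:**
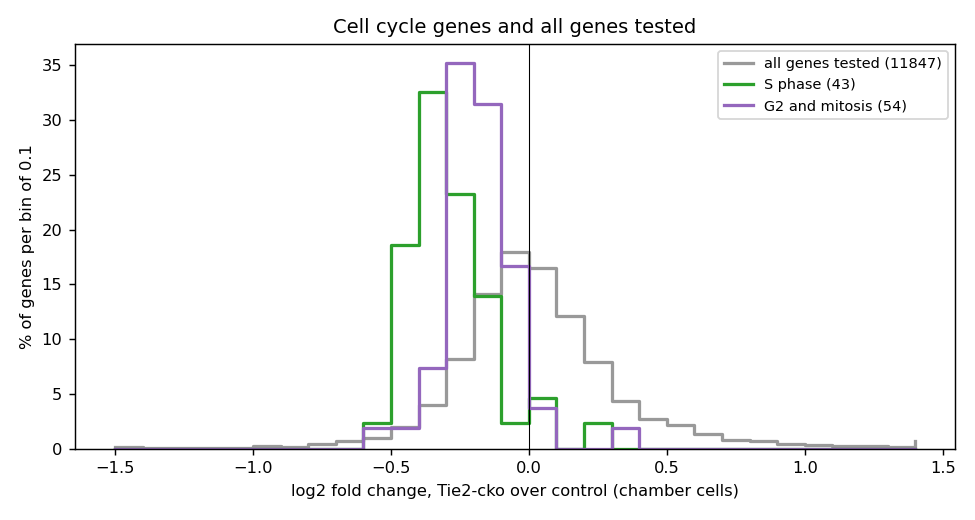
Distribution of log2 fold changes of *Tie2-cko* over control in chamber EdCs (x axis, bins of 0.1) as the percentage of genes (y axis) for the 43 S phase genes, the 54 genes of G2 and mitosis and all 11847 genes tested. Both lists lie left of 0, with medians of -0.31 and -0.19, whereas all genes centre on 0.01, and values beyond the axis are placed in the outermost bins.

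The promoters of these 2 lists are shown because their members lay on one side together and carry different sequence elements. In RefSeq promoters (250 bases before to 50 after the start, GRCm38.p6), TTTGGCGC or TTTCCCGC, which are E2F-type elements, were searched on both strands and occurred in 11 of 31 S phase genes with a promoter listed (35.5%), in 2 of 47 of the G2 and mitosis genes (4.26%) and in 1.56% of all 32851 promoters. The capitals mark the element, read along the strand of the gene and here in its reverse complement.
Mcm5 (chr8:75109349-75109378, plus strand): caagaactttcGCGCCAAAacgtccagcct
Mcm7 (chr5:138172030-138172059, minus strand): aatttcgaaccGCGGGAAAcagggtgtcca
Pola1 (chrX:93632275-93632304, minus strand): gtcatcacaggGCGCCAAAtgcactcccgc
Cdc6 (chr11:98908002-98908031, plus strand): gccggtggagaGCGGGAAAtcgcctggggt

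TTTGAA, the core of the cell cycle homology region (CHR), occurred on either strand in 33 of the 47 G2 and mitosis promoters (70.2%), in 5 of 31 of the S phase promoters (16.1%) and in 17.9% of all. It begins with the same letters as TTTGGCGC, but neither contains the other. The capitals mark it in 3 genes.
Mki67 (chr7:135716478-135716507, minus strand): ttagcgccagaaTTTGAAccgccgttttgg
Cdk1 (chr10:69352966-69352995, minus strand): ctgattggctccTTTGAAcgtctacgtgca
Top2a (chr11:99024351-99024380, minus strand): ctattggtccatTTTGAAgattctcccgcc
The FOXO-type element TGTTTAC was in none of the 3 promoters listed for the genes named as raised by FOXO1, in 1 of 17 promoters of the named genes (*Myct1*) and in 3.65% of all. A match is a description of the letters in this window only.

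Cells with a UMI of *Mki67* or *Top2a*, both transcribed in dividing cells, were also counted. No cell type that should lack them was measured, so the share that free RNA gives is not known. After thinning to 5500 UMIs, 57.3% and 63.9% of control chamber EdCs and 53.6% and 42.6% of *Tie2-cko* chamber EdCs had a UMI of *Mki67* or *Top2a*, a difference of -12.4 percentage points (60.6% ± 4.7 against 48.1% ± 7.8, SD, n = 2 libraries, exact permutation p = 0.333). The step was -3.62 points between libraries 6 and 5 and -21.3 points between libraries 8 and 7. The difference was -15.5 points without clusters 3, 4 and 7, and -6.91 points without library 8. Without thinning the shares were 72.1%, 77%, 77% and 60.6% in libraries 5, 6, 7 and 8, and the genotypes overlapped. When both genes were asked of a cell, 27.7%, 31.1%, 29.8% and 15.3% passed, so that library 6 was the highest and library 8 the lowest. Cluster 0, with the mitotic genes, held 29.5%, 21.7%, 25.3% and 15.1% of the chamber EdCs of libraries 5, 6, 7 and 8. In cushion EdCs the thinned shares of cells with either gene were 47.9%, 38.8%, 45.4% and 48.5%.

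Brakes and D cyclins showed less. Of 15 tested, 5 had a positive and 10 a negative log2 fold change, with a median of -0.02. The proto-oncogene *Myc* was the only one with an unadjusted p below 0.05 (3.61% of all genes were higher at it), at 0.132 and 0.131 in controls and at 0.176 and 0.206 in *Tie2-cko* (0.47 ± 0.17). *Ccnd1*, cyclin D1, was at 1.66 and 1.70 against 1.79 and 1.46. *Cdkn1c*, the abundant inhibitor p57, was at 100.7 and 98.0 against 104.1 and 69.9, so library 8 stood below the other 3.

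Stress and metabolic genes were described to complete the picture. Of 16 immediate early genes tested, 15 had a positive log2 fold change and 4 an unadjusted p below 0.05 (*Dusp1*, *Ier3*, *Btg2* and *Zfp36*), with a median of 0.35, while 50.8% of all genes were positive and 3.61% higher at that threshold. *Dusp1*, a phosphatase of MAP kinases, was at 0.184 and 0.233 against 0.331 and 0.289 (0.65 ± 0.17). Such genes also respond to dissociation. Of 9 heat shock genes 8 were negative, 0 with an unadjusted p below 0.05, with a median of -0.15. Of 18 glycolysis genes 1 (*Bnip3*, 0.194 and 0.188 against 0.285 and 0.334) had an unadjusted p below 0.05, with a median of 0.04.

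Whether the genotype difference of a gene was unequal in chamber and cushion EdCs was tested within the same libraries. A gene that passes may differ in either type. In edgeR 33 of 12014 genes (0.275%) passed at an adjusted p below 0.05, 22 with a more positive and 11 with a more negative log2 fold change in chamber EdCs, and 981 had an unadjusted p below 0.05. *Tmsb4x*, thymosin beta 4, which binds actin monomers, was at 34.8 and 38.1 in controls and at 42.4 and 48.3 in *Tie2-cko* chamber EdCs. In cushion EdCs it was at 62.2 and 76.8 against 58.8 and 64.3. The 2 fold changes differed by 0.58 ± 0.06 on the log2 scale (adjusted p = 0.00185). The LIM protein gene *Crip1* was at 4.66 and 6.11 against 4.95 and 6.79 in chamber EdCs and at 13.2 and 19.9 against 10.1 and 14.9 in cushion EdCs, a difference of 0.56 ± 0.07 (adjusted p = 0.0174). Its genotypes overlapped in chamber EdCs, where the log2 fold change was 0.08 ± 0.18.

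**Figure D5:**
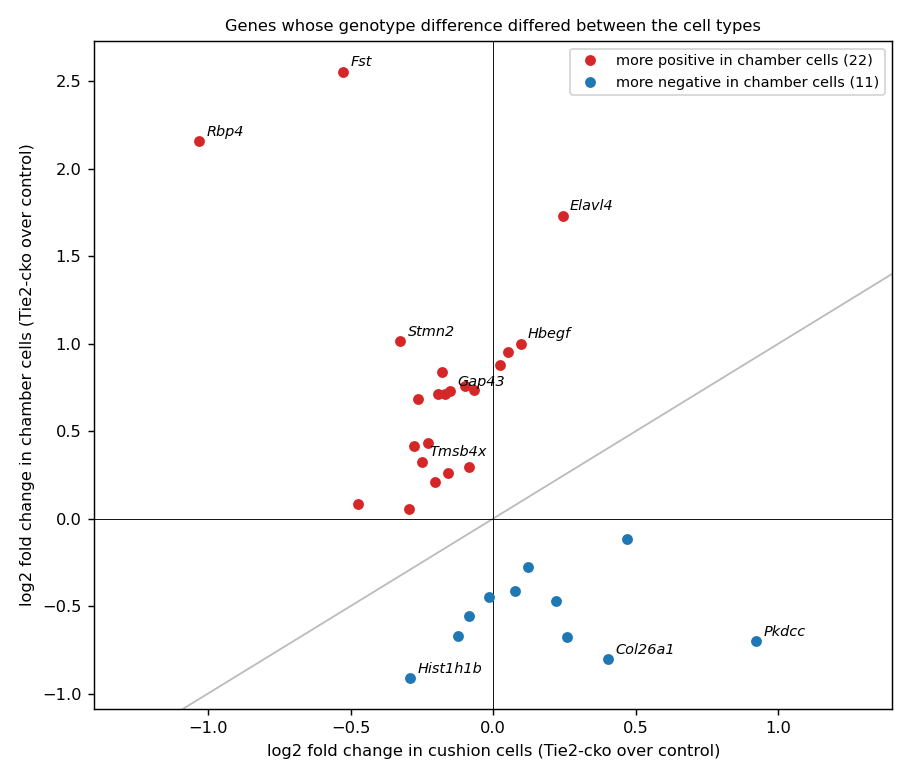
log2 fold change of *Tie2-cko* over control in cushion EdCs (x axis) and chamber EdCs (y axis) for the 33 genes whose fold changes differed between these cell types in edgeR. The grey diagonal marks equal fold changes, 22 genes lie above it and 11 below it.

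On the more negative side *Hist1h2ae* was at 5.40 and 6.74 in controls against 4.37 and 3.69 in *Tie2-cko* chamber EdCs, and at 4.13 and 4.73 against 4.55 and 3.85 in cushion EdCs, a difference of -0.54 ± 0.07 (adjusted p = 0.0174). The linker histone *Hist1h1b* differed by -0.63 ± 0.09 (adjusted p = 0.0238), but without clusters 3, 4 and 7 it had adjusted p = 0.131. *Stmn2*, a microtubule regulator, differed by 1.33 ± 0.18 (adjusted p = 0.0174). It was a leading gene of cluster 7, and without the 3 clusters its adjusted p was 0.954. *Fst*, follistatin, which binds activins, differed by 3.07 ± 0.42 (adjusted p = 0.0174), at chamber levels of only 0.00817, 0.152, 0.0242 and 0.0312 in libraries 5, 6, 7 and 8.

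Other members of the fixed lists among the 33 were the matrix genes *Sparc* and *Hbegf*, more positive in chamber EdCs, *Col26a1* and *Hapln1*, more negative, and the neural marker *Elavl4*. *Hapln1* did not pass without clusters 3, 4 and 7 (adjusted p = 0.0594) or without cells with 2 or more *Pf4* UMIs (adjusted p = 0.0558). *Sparc* was at 6.60 in each control and at 8.23 and 8.10 in *Tie2-cko* chamber EdCs, and at 8.56 and 8.72 against 8.46 and 7.78 in cushion EdCs (0.42 ± 0.06, adjusted p = 0.0238). None of the S phase genes, the genes named for FOXO1 or the BMP and ALK1 genes passed this test. Without the 3 clusters 34 genes passed, 29 more positive and 5 more negative, and 22 of the 33 were among them. The count rested on control library 7. Without it 0 genes passed, the smallest adjusted p being 0.120 for *Tmsb4x*, whereas without library 5, 6 or 8 there were 67, 201 and 290. The 33 genes, chosen by this test, kept their sign in these fits.

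Chamber EdCs made up 60.9% of the endocardial cells in control 5 (95% Wilson interval 56.9% to 64.7%) and 59.0% in control 7 (55.6% to 62.3%), and 56.3% in *Tie2-cko* 6 (50.3% to 62.1%) and 51.7% in *Tie2-cko* 8 (48.1% to 55.2%). The mean difference was -5.98 percentage points (60.0% ± 1.3 against 54.0% ± 3.3, SD, n = 2 libraries, exact permutation p = 0.333, the smallest possible). Without clusters 3, 4 and 7 the shares were 57.3%, 48.9%, 57.4% and 47.1% in libraries 5, 6, 7 and 8, a difference of -9.31 points. With all clusters the step was -4.60 points between libraries 6 and 5 and -7.36 points between libraries 8 and 7. Without *Tie2-cko* library 8 the difference was -3.66 points. Among all endothelial cells the shares were 52.4%, 49.2%, 49.0% and 43.5% in libraries 5, 6, 7 and 8, and the genotypes overlapped. These shares depend on the genes of the rule. Both *Tie2-cko* libraries had more *Emcn*, and less *Npr3* and *Gpr182*, than either control, and their part in the difference was not tested.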

How the data were processed

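Single-cell RNA was measured with a droplet 3′ kit in 4 libraries of mouse hearts. The authors deposited raw UMI counts per gene and barcode, which the file headers credit to Cell Ranger 6.1.2, and the submitters' processing notes name mm10. Barcodes kept numbered 9019, 4468, 7965 and 8963 in libraries 5, 6, 7 and 8, and all deposited barcodes held 259775540, 222270938, 169361996 and 210062861 UMIs.

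Counts of the chosen cells were summed by library and tested with edgeR 4.0.16 (TMM, filterByExpr, quasi-likelihood test, Benjamini-Hochberg threshold 0.05), with DESeq2 1.42.0 as an alternative. The edgeR and DESeq2 steps were run on simulated counts with 200 strongly changed genes. Those counts had an equal spread for all genes and no effect of library pair. They do not show how the steps behave with such an effect. Shares were compared by exact permutation over libraries. Clusters came from scanpy 1.11.5 (2000 variable genes, resolution 0.5), and doublets, marked by Scrublet, stayed in the main results. Gene lists cover the pathways, processes and cell types reported above. Named genes were up to 12 in each direction with the smallest p, at least 0.5 UMIs per 10000 in the higher genotype and no overlap between genotypes, up to 6 of the cell type by genotype term, and examples of each list with the smallest p or in the study's questions. The members and the lists were chosen with earlier results of these data known. Poisson and Wilson intervals cover counting error only. Sequences are from RefSeq and gene positions from GENCODE, on mm10 (GRCm38). The alternatives tried are given at the end.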

Additional observations from a re-analysis of the deposited data

Results flagged for a closer look

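For 6 genes the genotype difference in chamber EdCs differed from that in cushion EdCs by the test of the difference itself, and each is named here as one of the smallest p among the 33 genes that passed. On the log2 scale the difference was 0.58 for *Tmsb4x*, 0.56 for *Crip1*, 3.07 for *Fst*, -0.54 for *Hist1h2ae*, 1.33 for *Stmn2* and -0.63 for *Hist1h1b*. *Stmn2* and *Hist1h1b* did not pass without clusters 3, 4 and 7, and none of the 6 passed without control library 7.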

How the results depend on the processing

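*Tek* was lower in *Tie2-cko* chamber EdCs in every fit run, and no named gene changed sign (368 values of 23 genes, whose direction their choice by this contrast largely fixed, of which 49 newly passed the threshold). Against 0 genes in edgeR, 16 were called by DESeq2 (*Tek* -1.53), 171 with no filter on low counts (*Tek* -1.52), 697 with the library pair as a block (*Tek* -1.51), 1 with members chosen after thinning (*Tek* -1.59) and 1 without clusters 3, 4 and 7 (*Tek* -2.22). The cause was not tested. Of the 24 named genes 0 passed in edgeR, 8 in DESeq2, 19 with no filter, 24 with the block, 1 after thinning and 1 without the 3 clusters. Leaving out 1 library, with the lone library of a genotype assumed to vary like the others, gave 0 to 57 genes, *Tek* between -1.67 and -1.39 and 0 to 2 named genes, the highest counts being without *Tie2-cko* library 8. The settings without the 3 clusters and without *Pf4* cells were chosen after seeing the data. With the block, 698 genes were called without the 3 clusters and 618 without cells with 2 or more *Pf4* UMIs. The library size alone as scaling, a minimum of 100 UMIs, and the removal of doublets, of cells over 5% mitochondrial UMIs, of cells with a margin under 3 or with *Tnnt2* of 5 or more called 0 genes each.

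Against 33 genes with a difference between chamber and cushion EdCs, 74 passed with no filter and 0 to 290 without 1 library. Of the 33, 22 were among the 34 that passed without the 3 clusters and 28 among the 37 without *Pf4* cells. The differences in shares kept their direction under all alternatives run, but 4 libraries cannot give an exact p below 0.333. No paired analysis by replicate number was possible because the labels give the groups no shared numbers. The median depth of 12621 to 31717 UMIs limits genes with few UMIs most, and a missing call does not show that the genotypes are alike.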

Other observations

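Library 5 allows a look at chamber EdCs of both sexes within 1 library. The 82 cells with *Xist* UMIs only had *Tek* at 1.16 and *Irx5* at 2.95 UMIs per 10000, and the 184 cells with Y-linked UMIs only had 0.748 and 2.26. They are cells of at least 1 embryo each, so no test was made.

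Among the 1400 chamber EdCs, those 86 at a margin of 1 UMI were more frequent in *Tie2-cko* library 8 (9.72%) than in libraries 5, 6 and 7 (4.37%, 3.95% and 5.30%).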
